A study of Mus musculus with 2744 samples.

Results

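Lin28a, Lin28b, Trim71, Msi1, Msi2, Igf2bp1, Igf2bp2 and Igf2bp3 encode RNA-binding proteins known from embryonic and progenitor cells, several of them tied to the let-7 microRNA. They were chosen by symbol, and all 8 were found among the 23968 genes of the count tables. The study sequenced the poly(A) RNA of 2744 single mouse cells by CEL-seq, a plate method that reads the 3′ ends of transcripts, while mouse embryonic stem cells in embryoid bodies became motor neurons. Cells were taken without selection on Days 2, 3, 4, 5 and 6. On Day 6 cells were also sorted as eGFP++ or eGFP+ by their green fluorescent protein. The main experiment holds all 7 groups, and the pilot experiment holds all but the Day 6 eGFP+ cells. The sources used here do not give the promoter of the reporter, the stem cell line or the added patterning factors. The main and pilot experiments are the 2 biological replicates, and cells of 1 experiment share its culture.

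Lin28a and Lin28b bind the loop of let-7 precursors and keep the mature microRNA from being made, and in turn mature let-7 binds the 3′ UTR of Lin28 mRNA. Trim71 is a TRIM-NHL protein, known in the worm as lin-41 and a let-7 target there, that represses bound mRNAs in stem and progenitor cells. Igf2bp1, Igf2bp2 and Igf2bp3 (IMP1 to IMP3) bind mRNAs, protect them and carry some of them along axons, and Msi1 and Msi2 (Musashi) control translation in neural progenitors and other stem cells. In the mouse nervous system most of these proteins belong to early stages and to cycling progenitors.

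The let-7 seed, which 6 of these genes match in their 3′ UTR, is bases 2 to 8 of the mature microRNA, shown in capitals in 4 of the 10 mature let-7 sequences that RefSeq gives for GRCm38.p6.
let-7a-5p: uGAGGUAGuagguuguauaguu
let-7g-5p: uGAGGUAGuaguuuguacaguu
let-7d-5p: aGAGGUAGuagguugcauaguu
let-7j: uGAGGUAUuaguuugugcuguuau
The seed GAGGUAG is shared by 9 of the 10, and let-7j has GAGGUAU. The 4 lie at chr13:48538239-48538260 (minus strand, let-7a-5p), chr9:106178846-106178867 (plus strand, let-7g-5p), chr13:48536078-48536099 (minus strand, let-7d-5p) and chr3:140028281-140028304 (plus strand, let-7j). In the precursor, the zinc knuckles of Lin28 are known to bind the letters GGAG, given in capitals in the stretch between the arms of 3 let-7 hairpins.
Mirlet7g loop: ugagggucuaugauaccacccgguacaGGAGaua
Mirlet7d loop: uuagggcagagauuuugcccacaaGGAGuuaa
Mirlet7c-2 loop: uugggcucugccccgcucugcgguaa
GGAG stood in 9 of the 11 let-7 loops, and not in those of Mirlet7b and Mirlet7c-2. Of 42 other mouse hairpins with a loop of 23 to 34 bases, 11.9% held it.

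The let-7 seed match CTACCTC was then searched for on the transcript strand of the longest 3′ UTR of each gene in GENCODE M21 (GRCm38). It was found in 6 of the 8 genes, 16 times in all, and each of the 6 had at least 1 longer match, CTACCTCA, which contains the 7 letters. Of 20983 mouse genes with a 3′ UTR, 8.95% held the match of 7 bases and 3.02% the match of 8. The 6 genes are both Lin28 genes, Trim71 and the 3 Igf2bp genes, and neither Musashi gene held the letters in this window. One site of each of the 6 is shown with its flanks.
Lin28a: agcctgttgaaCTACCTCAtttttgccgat
Lin28b: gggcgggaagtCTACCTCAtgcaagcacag
Trim71: ttgcctaagtcCTACCTCAgcttaaatttt
Igf2bp1: tgcgaagtaaaCTACCTCAaggtgtgaagt
Igf2bp2: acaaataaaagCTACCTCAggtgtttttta
Igf2bp3: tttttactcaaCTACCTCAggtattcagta
The capitals mark the match. The shown sites lie at chr4:134005178-134005207 (Lin28a), chr10:45381011-45381040 (Lin28b), chr9:114512461-114512490 (Trim71), chr11:95961767-95961796 (Igf2bp1), chr16:22059462-22059491 (Igf2bp2) and chr6:49086776-49086805 (Igf2bp3), all on the minus strand. Trim71 held 4 matches in 5512 bases, where genes with a 3′ UTR of like length held a mean of 0.386 and 29.8% of them at least 1. Igf2bp1 held 4 matches in 6337 bases (mean of like genes 0.438, 34.2% with at least 1), and Lin28b held 4 in 4445 bases (0.293 and 24.01%). Lin28a held 2 in 2775 bases (0.176 and 14.8%), while Igf2bp2 had 1 in 1784 bases (0.131 and 12.03%) and Igf2bp3 had 1 in 2119 bases (0.151 and 13.3%). A match is a description of these letters and not a measured site. Mature let-7 is not read by a poly(A) method: the 13 let-7 entries of the tables took 250 reads in 25 of 2448 cells, and 8 of them had no read.

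**Figure D1:**
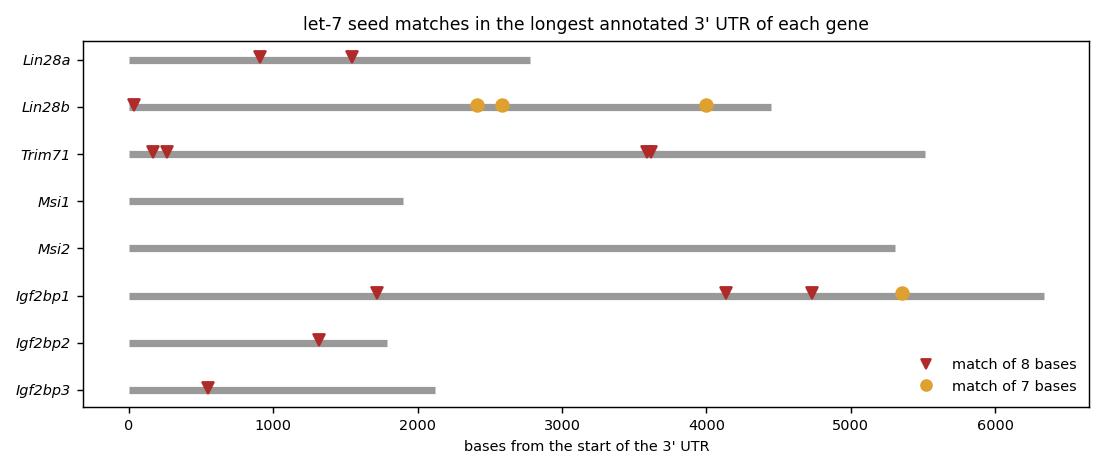
Longest annotated 3′ UTR of each of the 8 genes (grey bar, bases from its start on the x axis), with let-7 seed matches of 8 bases as red triangles and of 7 bases as yellow circles. Trim71 and Igf2bp1 carry 4 matches each, and the Musashi genes carry none in this window.

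Cells with at least 500 detected genes were kept, 2448 of 2744, and their reads were summed per group and experiment. The 13 sums held 16370502 to 100972780 gene reads, and a group's median cell had 1404 to 4439 detected genes. The reads carry no molecular identifiers, so 1 well with many copies of a transcript can set a sum, and intervals cover counting error only. Levels are given as CPM, the reads of a gene scaled by all gene reads of the sum. Shares are the percentage of cells with at least 1 read after each cell was thinned to 10000 reads, with 95% Wilson intervals, and a share over all reads is named as such. Summed reads of 10 pluripotency markers stood at 19.2 (main) and 41.1 CPM (pilot) on Day 6, against 5368 and 4098 CPM on Day 2. Those of 10 neuron markers were 5147 and 6176 CPM in Day 6 eGFP++ cells, against 2143 and 1737 CPM in unselected Day 6 cells. Reads of 10 endoderm and mesoderm markers never passed 38.6 CPM in a sum. Plates stood apart in 3 cases (1 of Day 3 and 1 of Day 4 in the main experiment, 1 of Day 4 in the pilot), by few detected genes or by the loss of over 33.3% of wells, and no count of called genes among the 8 differed without them.

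In the summed reads of both experiments Lin28a was lower and Igf2bp3 higher on Day 6 than on Day 2, Igf2bp1 and Msi2 were lower on Day 6 than on Day 5, Trim71 was lower in eGFP++ cells than in unselected Day 6 cells, and Msi1 was barely read. None of these differences passed the main test, edgeR's quasi-likelihood test on the 12 sums of all groups but eGFP+, with Benjamini-Hochberg adjustment over all genes. The count of called genes among the 8 was 0 in all 7 comparisons. Among all tested genes, this test called 0.0498% for Day 3 against Day 2, 0% each for Day 4 against Day 3, Day 5 against Day 4 and Day 6 against Day 5, 0.833% for Day 6 against Day 2, 0.0311% for Day 6 eGFP++ against Day 6, and 4.18% for the slope over Days 2 to 6. Of the 8 genes, an unadjusted p under 0.05 was reached by 1 for Day 6 against Day 5, 2 for eGFP++ against Day 6, 1 for the slope and 0 elsewhere. DESeq2 called 1 of the 8 for eGFP++ against Day 6, where it called 3.26% of all genes, and 2 of the 8 for the slope, where it called 16.3%.

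**Figure D2:**
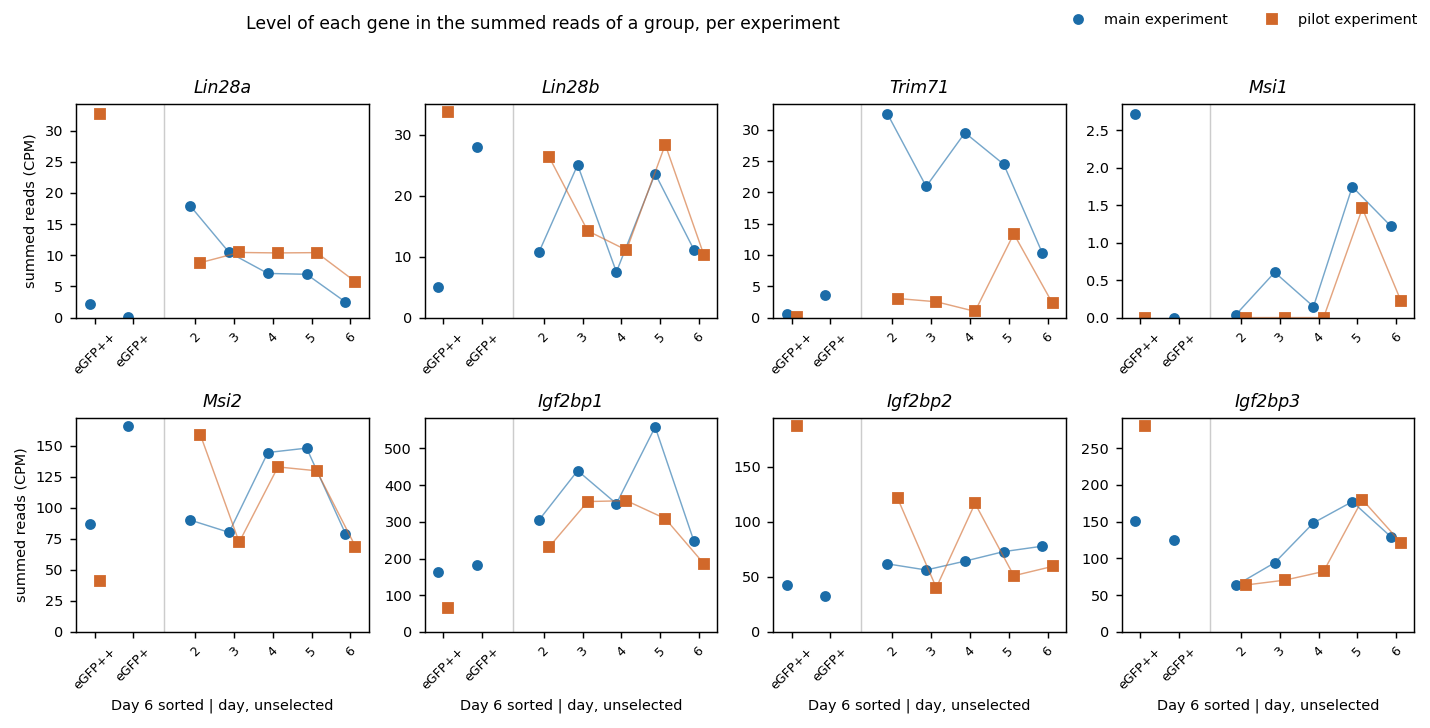
Level of each gene (y axis, CPM of summed reads) in Day 6 eGFP++ and eGFP+ cells (left of the grey line) and in unselected cells of Days 2 to 6 (right of it), with main sums as blue circles and pilot sums as orange squares. In 7 of the 8 panels both Day 6 sums lie below both Day 5 sums, as they do for 19.4% of all tested genes. For Trim71 and Msi1 this rests on 1 pilot Day 5 well each, and the single high Lin28a square in eGFP++ cells comes from 1 well.

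Lin28a, the let-7 inhibitor of pluripotent cells, had 17.9, 10.4, 7.08, 6.94 and 2.51 CPM on Days 2, 3, 4, 5 and 6 of the main experiment. Its pilot sums were 8.81, 10.4, 10.4, 10.4 and 5.75 CPM on the same days. Main levels were thus lower on each later day, while the pilot stayed level to Day 5, and in both experiments Day 6 was the lowest day, below Day 2 with no overlap. Cells with a Lin28a read made up 14.1, 7.58, 3.54, 3.68 and 0.565% on Days 2 to 6 in the main experiment. The Day 6 interval there, 0.155 to 2.04%, lay below the Day 2 interval of 10.8 to 18.1%. In the 4 main plates of Day 6 the share was 0 to 1.14%, against 12.4 to 16.3% in the 4 main plates of Day 2. The pilot had 6.76, 11.6, 5.26, 2.67 and 7.04% on Days 2 to 6, from 2 to 8 cells a day, and showed no such order. Over all reads the shares were 6.50% (main) and 18.3% (pilot) on Day 6, against 57.3 and 36% on Day 2.

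The fitted slope of Lin28a reads was -0.41 ± 0.23 log2 per day (SE, edgeR adjusted p = 0.363), and DESeq2 gave -0.40 with an adjusted p of 0.0419. When cells with a read were summed in place of reads and fitted with edgeR, Lin28a fell, with a slope of -0.47 ± 0.06 log2 per day (adjusted p = 1.32e-05), and 26.5% of all tested genes were called. In that fit it also fell on Day 6 against Day 2, by -2.13 ± 0.29 log2 (adjusted p = 4.33e-08, 30.8% of genes called). Day 6 against Day 5 gave -1.09 ± 0.31 log2 for it (adjusted p = 0.0402, 2.22% called). The slope of its thinned share was -1.96 percentage points per day (-3.09 main, -0.84 pilot). An exact permutation of the days within experiments (two-sided, all arrangements) gave p = 0.0292 for it, adjusted over all genes to 0.161. That permutation test called 0 of the 7 genes it could test, and 3.93% of all genes. Msi1 had a read in under 10 thinned cells of Days 2 to 6 and was not tested.

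In Day 6 eGFP++ cells Lin28a had 2.14 (main) and 32.7 CPM (pilot), against 2.51 and 5.75 CPM in unselected Day 6 cells. A single well gave 99.4% of the pilot eGFP++ reads, and without it that sum stood at 0.192 CPM. Shares were 1.42 and 2.56% in eGFP++ cells, against 0.565 and 7.04% in unselected Day 6 cells. The fitted change of 1.87 ± 1.43 log2 (adjusted p = 0.743) became -0.81 without the pilot eGFP++ sum, so no direction is given. The 83 eGFP+ cells held 1 Lin28a read, 0.0602 CPM.

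Lin28b, the second let-7 inhibitor, did not follow Lin28a. Its main sums were 10.7, 25.05, 7.48, 23.6 and 11.1 CPM on Days 2 to 6, and its pilot sums 26.4, 14.2, 11.1, 28.4 and 10.2 CPM. Both experiments had a high Day 5 between a low Day 4 and a low Day 6, with no overlap on either side. Single wells shaped the earlier days: 1 well held 52.2% of the main Day 3 reads and 1 held 89.7% of the pilot Day 2 reads, and without them these sums were 12.005 and 2.75 CPM. On Day 5 the largest well held 5.47% of the main and 20.2% of the pilot reads.

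Detection of Lin28b was also highest on Day 5. It was read in 12.6% of main and 13.3% of pilot cells on Day 5, against 3.10 and 1.75% on Day 4, and in 3.11 and 5.63% on Day 6. Over all reads the shares were 28.6 and 24% on Day 5, against 13.2 and 5.26% on Day 4. In the 4 main plates of Day 5 it ranged over 11.5 to 13.8%, above the 2.35 to 3.92% of the 3 main plates of Day 4. The fitted change of reads for Day 5 against Day 4 was 1.47 ± 1.07 log2 (edgeR adjusted p = 0.956). For Day 6 against Day 5 it was -1.20 ± 1.06 log2 (adjusted p = 1), and with cells in place of reads -1.06 ± 0.43 log2 (adjusted p = 0.227). Over all 5 days the slope was -0.12 ± 0.19 log2 per day in reads (adjusted p = 0.795) and 0.12 ± 0.11 in cells (adjusted p = 0.485). In Day 6 eGFP++ cells Lin28b had 4.99 (main) and 33.7 CPM (pilot), against 11.1 and 10.2 CPM in unselected Day 6 cells. The experiments thus went in opposite directions, and 1 well held 64.97% of the pilot eGFP++ reads.

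**Figure D3:**
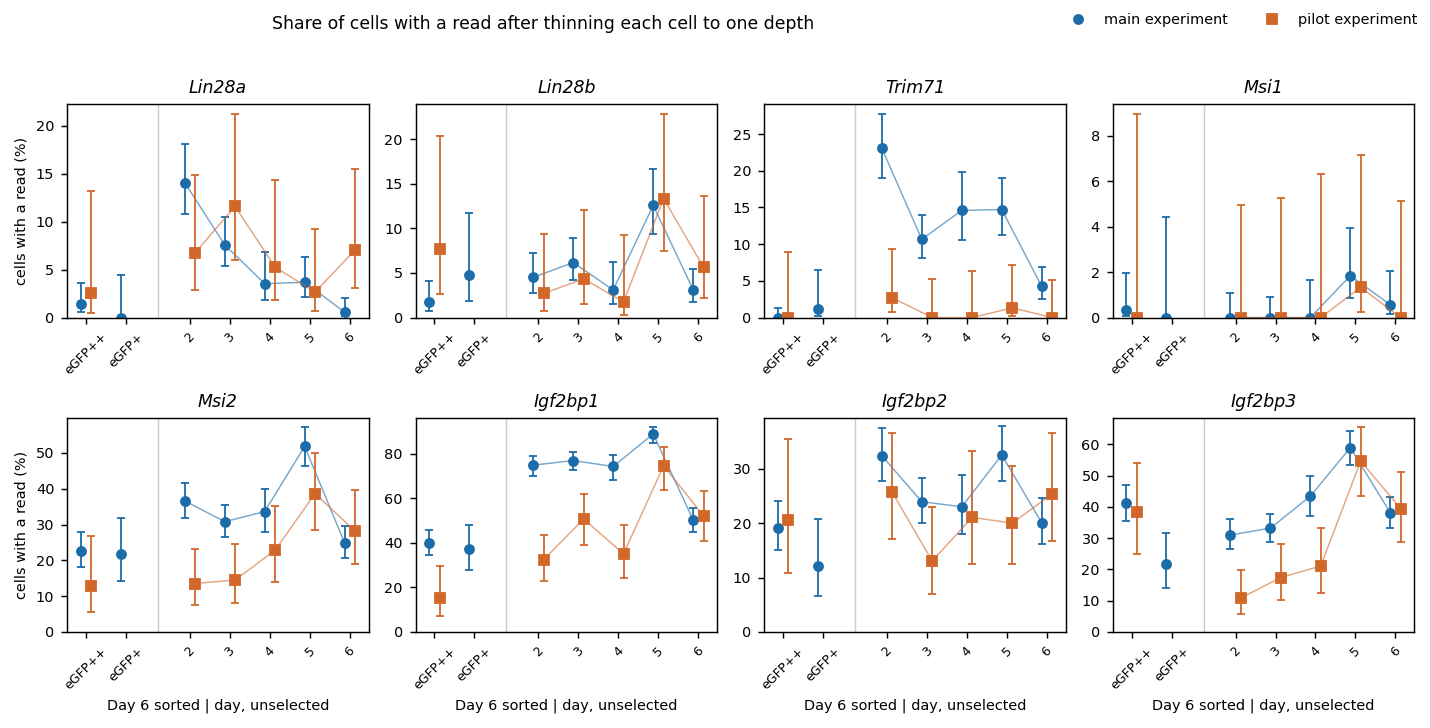
Share of cells with at least 1 read of each gene after thinning to 10000 reads a cell (y axis, percent), with 95% Wilson intervals, in sorted Day 6 cells (left of the grey line) and by day (right of it); blue circles are main and orange squares pilot cells. Lin28a declines in the main experiment, Lin28b stands out on Day 5 at 12.6 and 13.3%, and Trim71 reaches 23.1% in main cells and 2.70% in pilot cells.

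Trim71, the let-7 target that represses mRNAs in stem cells, was higher in the main than in the pilot experiment on every day. Its main sums were 32.5, 20.9, 29.5, 24.5 and 10.3 CPM on Days 2 to 6, and its pilot sums 3.04, 2.53, 0.996, 13.4 and 2.27 CPM. The 2 sums of Day 5 were closest as a ratio, and 1 well held 80.6% of the pilot Day 5 reads. In the main experiment 23.1, 10.7, 14.6, 14.7 and 4.24% of cells had a read on Days 2 to 6. In the pilot the share was 2.70, 0, 0, 1.33 and 0%. The intervals of the counts of 0 reach up to 5.27% (Day 3), 6.31% (Day 4) and 5.13% (Day 6). They limit cells with a thinned read, not cells with the transcript. Over all reads the main shares were 53.7, 42.4, 37, 37.7 and 7.63%, and the pilot shares 8, 2.90, 5.26, 20 and 12.7%. Day 6 was the lowest day in the main experiment, in level and in share.

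In Day 6 eGFP++ cells Trim71 had 0.602 CPM in the main experiment, 31 reads in 5 cells, and 0.0611 CPM in the pilot, 1 read. Unselected Day 6 cells had 10.3 CPM, 589 reads in 27 cells, and 2.27 CPM, from 9 cells. Over all reads these are 1.77 and 2.56% of eGFP++ cells, against 7.63 and 12.7% of unselected Day 6 cells. After thinning, 0% of eGFP++ cells had a read in both experiments, against 4.24% (main) and 0% (pilot) of unselected Day 6 cells, so the pilot shares did not differ. The CPM sums did not overlap. The fitted change was -4.62 ± 1.49 log2 (edgeR p = 0.0102, adjusted p = 0.618). Cells with a read gave a fall of -2.30 ± 0.63 log2 (edgeR adjusted p = 0.0484, 1.31% of genes called), and DESeq2 on reads gave -4.48 ± 1.15 log2 (adjusted p = 0.0059). Leaving out a sum of either group moved the edgeR value between -5.15 and -4.03. Summed reads of 10 cell cycle markers were also lower in eGFP++ cells, 417.2 and 337.6 CPM against 1633 and 2466 CPM in unselected Day 6 cells, and their part in the Trim71 difference was not tested. In the main experiment the median cell with a Trim71 read held 7 reads among eGFP++ cells and 12 among unselected Day 6 cells. The pilot medians were 1 and 11. Both the cells with a read and the reads in them were thus fewer, but the eGFP++ medians rest on 5 cells and 1 cell.

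Over Days 2 to 6 the slope of Trim71 reads was -0.02 ± 0.28 log2 per day (adjusted p = 0.985). With cells in place of reads it was -0.23 ± 0.10 (adjusted p = 0.106), and Day 6 against Day 2 then gave a fall of -1.53 ± 0.38 log2 (adjusted p = 0.0013), where reads gave -1.08 ± 1.27 (adjusted p = 0.718). Day 6 against Day 5 gave -2.08 ± 1.29 log2 in reads (adjusted p = 1) and -1.30 ± 0.38 in cells (adjusted p = 0.0533). The value in reads was -0.53 without the pilot Day 5 sum and -2.88 without the main one. The share slope was -1.89 percentage points per day (exact permutation p = 0.0667, adjusted p = 0.25).

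Igf2bp1, which in neurons is known to bind beta-actin mRNA, was read in 52.6 to 96.4% of unselected cells of a sum over all reads. It had 304.4, 439.5, 349.4, 558.5 and 247.2 CPM on Days 2 to 6 of the main experiment, and 230.95, 355.3, 357.6, 308.8 and 185.4 CPM in the pilot. It was higher on Day 3 than on Day 2 in both experiments. Without the largest well of each sum, pilot Day 3 stood at 279.8 CPM, below main Day 2 at 287.4 CPM. On Day 6 it was lower than on Day 5 in both experiments with no overlap, as were 19.4% of all tested genes. The fitted changes were 0.53 ± 0.39 log2 for Day 3 against Day 2 (edgeR adjusted p = 1) and -0.90 ± 0.39 log2 for Day 6 against Day 5 (unadjusted p = 0.0425, adjusted p = 1). Thinned shares were 50.3% (main) and 52.1% (pilot) on Day 6, against 88.96 and 74.7% on Day 5. Over all reads they were 70.1 and 77.5% on Day 6, against 96.4 and 94.7% on Day 5. Median detected genes per cell were 2310.5 and 3361 on Day 6, against 3614.5 and 3122 on Day 5, so depth in genes was lower on Day 6 only in the main experiment. The fit on cells with a read, which is scaled to the detection of all genes, gave 0.07 ± 0.32 log2 (adjusted p = 0.959).

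In Day 6 eGFP++ cells Igf2bp1 was lower again, 162.4 (main) and 65.97 CPM (pilot), against 247.2 and 185.4 CPM in unselected Day 6 cells. Shares were 40.1 and 15.4% in eGFP++ cells, against 50.3 and 52.1% in unselected Day 6 cells. Over all reads they were 61.5 and 69.2% in eGFP++ cells, against 70.1 and 77.5%. The fitted change was -0.98 ± 0.39 log2 (edgeR p = 0.0296, adjusted p = 0.743), and it was -0.61 without the pilot and -1.49 without the main eGFP++ sum. In cells with a read it was -0.02 ± 0.34 log2 (adjusted p = 1). The ordered groups ran from Day 5 (433.6 ± 176.6 CPM, mean ± SD, n = 2) through Day 3, Day 4, Day 2 and Day 6 to eGFP++ (114.2 ± 68.2 CPM). Day 4 and Day 2 were apart, as were Day 6 and eGFP++, and the other neighbours overlapped.

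Igf2bp2, the paralogue known to be kept after birth in the mouse, showed no steady rise or fall over Days 2 to 6. Day 3 was its lowest day in both experiments. Its main sums were 61.8, 56.2, 64.2, 72.9 and 77.8 CPM on Days 2 to 6, and its pilot sums 121.5, 40.2, 116.7, 51.02 and 59.4 CPM. In eGFP++ cells it had 43.01 (main) and 186.6 CPM (pilot), against 77.8 and 59.4 CPM in unselected Day 6 cells, so the experiments went in opposite directions. Unselected cells with a read were 20.1 to 32.5% of a day's main cells and 13.04 to 25.7% of its pilot cells, and eGFP++ cells 19.1 and 20.5%. Its slope was -0.09 ± 0.11 log2 per day in reads (adjusted p = 0.726) and 0.0004 ± 0.05 in cells (adjusted p = 0.997).

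Igf2bp3, the third paralogue, had 63.3, 94.2, 148.4, 177.2 and 129.3 CPM on Days 2 to 6 of the main experiment. In the pilot it had 63.9, 70.4, 82.2, 180.01 and 121.2 CPM. In both experiments Day 5 was the highest day, and Day 6 was lower than it but above Day 2 with no overlap. The thinned share was 38.1% (main) and 39.4% (pilot) on Day 6, against 30.99 and 10.8% on Day 2, with 58.9 and 54.7% on Day 5. Over all reads it was 56.5 and 66.2% on Day 6, against 60.7 and 26.7% on Day 2, so the main order turned without thinning. In the 4 main plates of Day 5 it ranged over 52.5 to 67.1%, above the 23.3 to 38.6% of the 4 main plates of Day 2. Its slope was 0.28 ± 0.10 log2 per day in reads (edgeR p = 0.0121, adjusted p = 0.125). DESeq2 called this slope a rise, at 0.29 (adjusted p = 0.0203), and so did the fit on cells with a read, at 0.17 ± 0.05 (adjusted p = 0.014). The slope of the thinned share was 6.73 percentage points per day (4.00 main, 9.45 pilot), with an exact permutation p of 0.0353 and an adjusted p of 0.176.

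Igf2bp3 had 150.3 (main) and 280.3 CPM (pilot) in eGFP++ cells, against 129.3 and 121.2 CPM in unselected Day 6 cells. The sums did not overlap, and the fitted change was 0.81 ± 0.48 log2 (edgeR adjusted p = 0.743). It was 0.11 without the pilot and 1.31 without the main eGFP++ sum. Shares were close, 41.1 and 38.5% in eGFP++ cells against 38.1 and 39.4% in unselected Day 6 cells. Igf2bp3 and Igf2bp1 therefore lay on opposite sides of unselected Day 6 cells in reads; the difference between their changes was not tested. In the sum of the 83 eGFP+ cells Igf2bp3 had 125.3 CPM, Igf2bp1 183.5 CPM and Igf2bp2 32.6 CPM. There Trim71 had 3.67 CPM and Lin28b 27.9 CPM, of which 1 well gave 59.3%, with no second experiment to compare.

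Msi2, a translational regulator of stem cells, had 89.99, 80.1, 144.4, 147.9 and 79.2 CPM on Days 2 to 6 of the main experiment and 158.6, 72.2, 132.8, 129.7 and 68.7 CPM in the pilot. Days 4 and 5 stood above Days 3 and 6 in both experiments. The highest pilot sum was that of Day 2, where 1 well held 27.1% of the reads, and without it the sum was 118.7 CPM. The fitted changes were 0.81 ± 0.50 log2 for Day 4 against Day 3 (edgeR adjusted p = 1) and -0.84 ± 0.50 log2 for Day 6 against Day 5 (adjusted p = 1). A read was found in 24.9% (main) and 28.2% (pilot) of cells on Day 6, against 51.8 and 38.7% on Day 5, and over all reads in 43.5 and 66.2% against 73.8 and 66.7%. In eGFP++ cells Msi2 had 87.2 and 40.8 CPM, against 79.2 and 68.7 CPM in unselected Day 6 cells, which overlap. The eGFP+ cells, from the main experiment only, had 165.96 CPM of Msi2, of which 1 well gave 17.1%, and a share of 21.7%.

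Msi1, the Musashi protein best known from neural progenitors, was close to absent from the reads. The main experiment had 0.0404, 0.604, 0.147, 1.75 and 1.22 CPM on Days 2 to 6, and the pilot had reads on Days 5 and 6 only, 1.46 and 0.218 CPM, each from 1 well. On Day 5, 2.71% of main cells had a read before thinning. Its fitted slope of 1.69 ± 0.89 log2 per day (adjusted p = 0.33) rests on these few wells. In eGFP++ cells 1 well of the main experiment held all 140 reads. Progenitor markers were present on Days 5 and 6, with summed reads of 10 such genes at 1941 to 2768 CPM in unselected cells. With so few reads Msi1 could not be followed, and the cause of its low level was not tested.

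**Figure D4:**
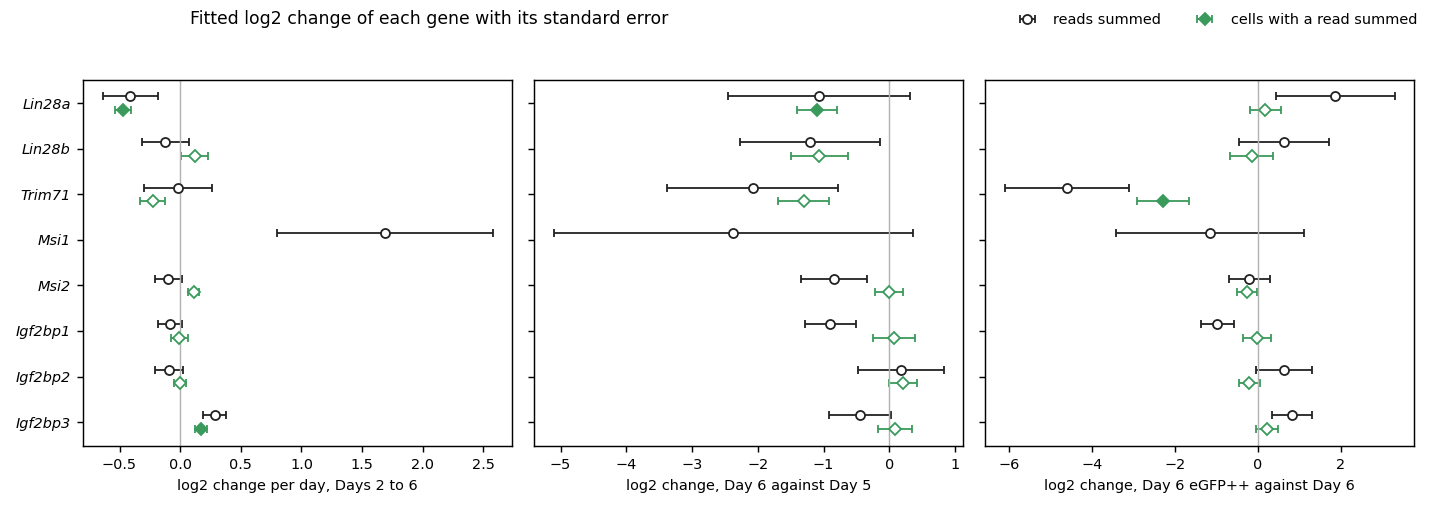
Fitted log2 change with its standard error (x axes) for each gene: per day over Days 2 to 6, Day 6 against Day 5, and Day 6 eGFP++ against unselected Day 6; black circles are edgeR on summed reads and green diamonds edgeR on the number of cells with a read, filled where the adjusted p is under 0.05. The filled points are Lin28a (slope and Day 6 against Day 5), Igf2bp3 (slope) and Trim71 (eGFP++ against Day 6), all in cells with a read.

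Read together, 7 of the 8 genes had Day 6 sums below both Day 5 sums in CPM, all but Igf2bp2. Among all tested genes 19.4% did so. For Trim71 and Msi1 this rests on 1 well each, which held 80.6 and 100% of the pilot Day 5 reads. Without that well the pilot Day 5 sums were 2.64 and 0 CPM, below the main Day 6 sums of 10.3 and 1.22 CPM. The median fitted change of the 8 for Day 6 against Day 5 was -0.98 log2, and that of all 16080 genes was -0.002. The fit on cells with a read is scaled to the detection of all genes. In it the median of the 7 genes tested was -0.01 and that of all genes -0.01. The shift of the median was thus seen in reads and not in that fit. Single genes still fell there: 4 of the 7 lay below 0, among them Lin28a, Lin28b and Trim71, and 3 above. The fall of Lin28a was the 1 called, beside 2.22% of all genes. A thinned Day 6 cell held reads of 1.42 (main) and 1.58 (pilot) of the 8 genes on average, against 2.65 and 2.07 on Day 5. Markers of cell types lay apart as well: all 10 cell cycle markers had a fitted change below 0 (median -0.77) and all 10 neuron markers one above 0 (median 1.98), with none called. Summed cell cycle reads were 1633 (main) and 2466 CPM (pilot) on Day 6, against 3331 and 3815 CPM on Day 5. Summed neuron reads were 2143 and 1737 CPM on Day 6, against 666.6 and 356.5 CPM on Day 5. Their part in the change of the 8 genes was not tested. Day 5 sums lay above both Day 4 sums for 3 of the 8 (Lin28b, Msi1 and Igf2bp3), beside 20.1% of all genes. Day 6 lay above Day 2 with no overlap for 2 of the 8 (Msi1 and Igf2bp3) and below it for 2 (Lin28a and Msi2), beside 28.8% and 19.3% of all genes. The pilot reads of Msi1 on Days 5 and 6 came from 1 well each. Day 6 eGFP++ lay above unselected Day 6 for Igf2bp3 and below it for Trim71 and Igf2bp1, beside 11.2% and 21.8%. Of these counts, that of Day 6 against Day 5 alone was above 3. The median change of the 8 for eGFP++ against Day 6 was 0.21 log2 with edgeR and 0.37 with DESeq2, where that of all genes was -0.52 and -0.10. Of the 8 changes 4 were above and 4 below 0, and those of Lin28a and Lin28b rested on single pilot wells.

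Scaling to the spike-in reads changed some directions. Spike-in sequences took 1.77 to 13.1% of the reads of a sum, 9.86 (main) and 11.01% (pilot) on Day 6 against 1.77 and 3.23% on Day 2, and this scaling set the median gene at -2.02 log2 for Day 6 against Day 2 and at -0.51 log2 per day for the slope. It called falls for Igf2bp1 (-2.59 ± 0.68) and Msi2 (-2.92 ± 0.72) on Day 6 against Day 2, with 13.3% of all genes called. For the slope it called falls for 4 of the 8 (Lin28a, Msi2, Igf2bp1 and Igf2bp2), with 30.2% of genes called. Relative to the median gene, Lin28a at -0.98 per day stayed below it, while Igf2bp3 at -0.23 per day lay above it, although its own sign turned.

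After thinning, reads of few of these genes were found in any single cell, which does not limit the transcripts that a cell holds. On Day 6 a main cell had thinned reads of 1.42 of the 8 genes on average and a pilot cell of 1.58, against 2.65 and 2.07 on Day 5. At least 3 of the 8 were read in 14.4% (main) and 18.3% (pilot) of cells on Day 6, against 52.5 and 34.7% on Day 5. On Day 2 main and pilot cells differed, 2.17 against 0.946 genes, as did their median detected genes, 4439 and 1810. On Day 2 of the main experiment Lin28a was read in 19.5% of the 82 cells with Trim71 and in 12.5% of those without it. The cells with Trim71 had a median of 5452 detected genes, against 4272 in those without, and the part of depth was not tested. On Day 3 of the main experiment Lin28a was read in 12.1% of cells with a read of Pou5f1, the Oct4 gene (interval 7.60 to 18.8%), and in 5.52% of 290 without (3.42 to 8.77%). Those cells had medians of 4472 and 3992 detected genes. In the pilot the Lin28a shares were 11.5% of 26 cells and 11.6% of 43. Its level was 10.5 CPM with and 10.4 CPM without Pou5f1 in the main experiment, and 8.32 and 12.1 CPM in the pilot. Main shares of Trim71 (15.2 against 8.62%) and Igf2bp1 (83.3 against 74.1%) were also higher with Pou5f1, and that of Msi2 was not (30.3 against 31.03%).

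Within Days 5 and 6, cells with a read of Stmn2, a neuron marker, were set beside cells with Top2a or Mki67 but no Stmn2, called cycling here. On Day 6 Igf2bp1 had 179.1 (main) and 144.4 CPM (pilot) in Stmn2 cells, against 361.6 and 248.4 CPM in cycling cells. It was read in 43.5% (interval 36.2 to 51.01%) and 40% (23.4 to 59.3%) of Stmn2 cells, against 63.8% (50.9 to 74.9%) and 64.5% (46.9 to 78.9%) of cycling cells. The pilot classes held 25 and 31 cells. Both experiments thus had less Igf2bp1 in Stmn2 cells, in level and in share. On Day 5 the main shares were 88.9% of 72 Stmn2 cells and 89.8% of cycling cells. Tubb3, a neuronal tubulin not used for the gate, was read in 75.6% (main) and 80% (pilot) of Stmn2 cells of Day 6. Among cycling cells it was read in 13.8 and 25.8%. Elavl3, a further neuron marker, was read in 41.7 and 48% of Stmn2 cells against 10.3 and 32.3% of cycling cells, so the pilot classes lay closer together. Igf2bp3 on Day 6 went the other way, at 152.3 and 132.1 CPM in Stmn2 cells against 125.996 and 123.2 CPM in cycling cells. Its shares were 45.8 and 52% against 31.03 and 41.9%. The intervals overlapped, 38.5 to 53.4% against 20.6 to 43.8% in the main experiment and 33.5 to 69.97% against 26.4 to 59.2% in the pilot. On Day 5 of the main experiment its share was lower in Stmn2 cells, 50% against 63.96% of cycling cells, at 188.6 and 183.5 CPM.

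A stricter gate, cells with at least 3 of 10 neuron markers against Top2a or Mki67 cells with none, was added after these values were seen. It gave Igf2bp1 171.4 and 141.8 CPM in neurons on Day 6, against 334.8 and 216.8 CPM in cycling cells, while Igf2bp3 stood at 138.7 and 136.05 CPM against 137.4 and 118.4 CPM. Trim71 by the Stmn2 gate had, on Day 6 of the main experiment, 12.5 CPM in Stmn2 cells against 7.79 CPM in cycling cells, and in the pilot it had 0.768 against 4.19 CPM. In the main experiment 1 well held 46.4% of the Stmn2 reads and 1 held 83.5% of the cycling reads of Trim71, and in the pilot 94.7% and 37.01%, so no direction is given. Lin28a on Day 5 of the main experiment was read in 5.56% of Stmn2 cells and 4.06% of cycling cells, with intervals of 2.18 to 13.4% and 2.07 to 7.81%. The Day 5 pilot held only 6 Stmn2 cells. No test was made between classes of cells, since there are 2 experiments.

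**Figure D5:**
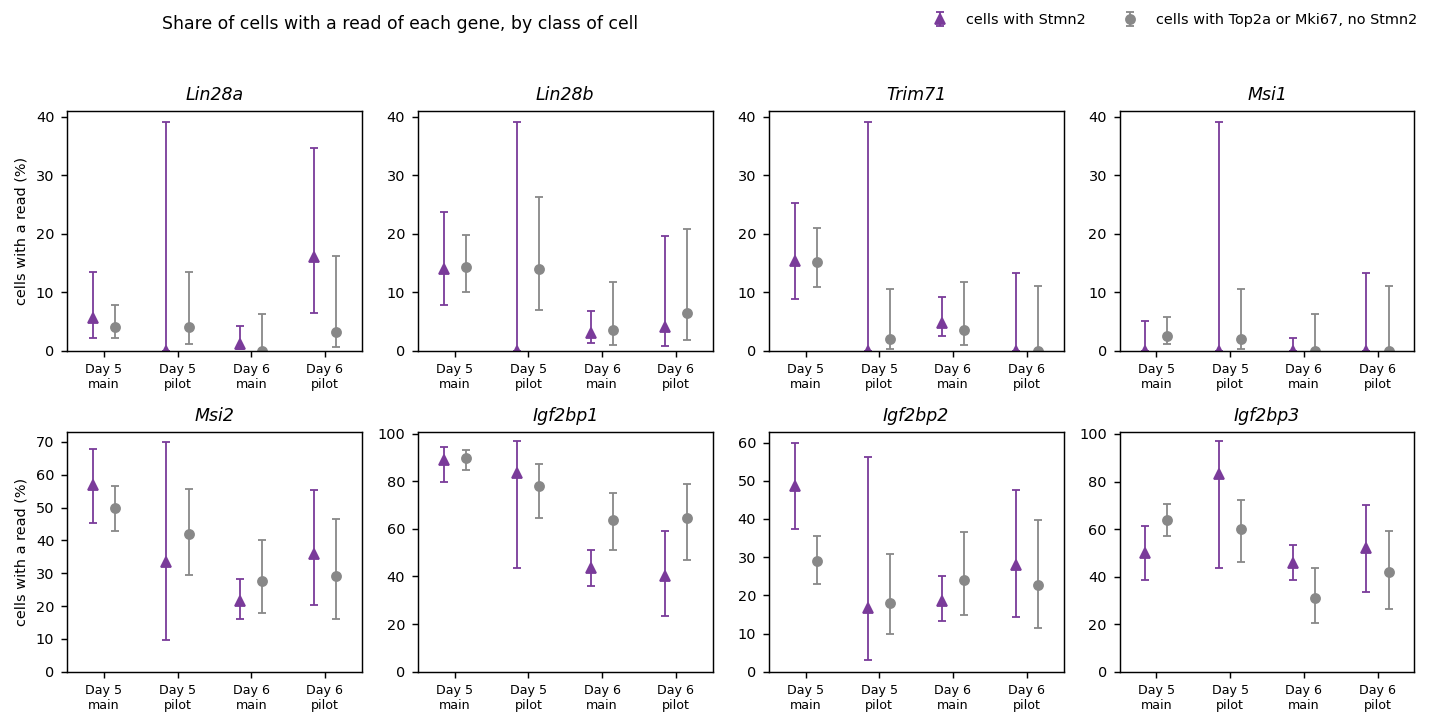
Share of cells with a read of each gene (y axis, percent after thinning, 95% Wilson intervals) in cells with Stmn2 (purple triangles) and in Top2a or Mki67 cells without Stmn2 (grey circles), on Days 5 and 6 of each experiment. Igf2bp1 is lower in Stmn2 cells on Day 6 in both experiments, 43.5 and 40% against 63.8 and 64.5%.

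Few partners and targets of these proteins passed the test. Among 13 genes of let-7 processing and decay (Drosha, Dicer1, Argonaute genes and the enzymes that tail and degrade precursors), 1 rose over Days 2 to 6 and 0 fell in the slope fit, where 4.18% of all genes were called. It was Ago1, an Argonaute that carries microRNAs, with 0.63 ± 0.14 log2 per day (edgeR adjusted p = 0.0269). Among 21 tested of 22 known let-7 targets 1 rose and 1 fell. Ccnd2, a D cyclin, rose by 1.60 ± 0.34 log2 per day (adjusted p = 0.0254). The median of these targets was -0.005 log2 per day, beside 0.02 over all genes. Of 10 mRNAs known as Musashi or Trim71 targets 1 rose, Dcx, a microtubule protein of young neurons, by 2.39 ± 0.43 log2 per day (adjusted p = 0.0132), and 0 fell. The calls of Ccnd2, Ago1 and Dcx each depended on single sums. Without the main or the pilot sum of Day 6 the adjusted p was 0.0842 or 0.0927 for Ago1 and 0.0565 or 0.101 for Dcx, and without the main or the pilot sum of Day 2 it was 0.12 or 0.0916 for Ccnd2. Ago1 was also not called without the pilot Day 2 (0.0851), main Day 3 (0.0527) or main Day 5 sum (0.0734). For Ccnd2 the same held without either sum of Day 3 (0.0565 and 0.0556) or Day 5 (0.054 and 0.0528). Ago1 was not called with spike-in scaling (0.801).

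Of 12 known Igf2bp targets 0 passed, with Mapt at 0.95 ± 0.30 and Gap43 at 1.19 ± 0.40 log2 per day (adjusted p = 0.107 and 0.125). Of 18 proteins of mRNA granules 0 passed, with 13 below 0, among them Elavl1 at -0.24 ± 0.07 and Ybx1 at -0.22 ± 0.08 log2 per day (adjusted p = 0.0758 and 0.141). In the same fit 7 of 10 pluripotency markers fell and 5 of 10 neuron markers rose, while 3 of 10 cell cycle markers fell, and 3 of 10 neural progenitor markers rose and 1 fell. None of the 9 tested endoderm and mesoderm markers was called.

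The genes whose levels ran most like each of the 8 were found by Pearson's r of log2(CPM + 1), centred within each experiment, over the 12 sums, among 8180 genes of at least 10 CPM on average. They are a description, since the 12 points share groups and experiments. Lin28a ran most like 9130401M01Rik (r = 0.96), with Rbm27 at 0.89 and with the pilot eGFP++ sum of 1 well among its points. Among the 3 genes most like Lin28b were Smarcc1 (0.85) and Nfatc3 (0.83), and Trim71 ran most like Rplp1 (0.97) and Dctpp1 (0.96). Igf2bp1 came closest to Mrfap1 (0.96), Fignl1 (0.95) and Spag5 (0.95), Igf2bp2 to Cetn3 (0.97) and Igf2bp3 to Ddx17 (0.95). Msi2 came closest to Olfr613 (0.90) and Msi1 to Cops7b (0.91). Among the 8 themselves, the highest values were 0.68 for Igf2bp1 with Msi2 and 0.66 for Igf2bp1 with Trim71, and the lowest was -0.57 for Lin28a with Msi1.

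In GENCODE M21 the 8 genes lie at chr4:134003330-134018841 (Lin28a), chr10:45376620-45486395 (Lin28b), chr9:114507133-114564369 (Trim71), chr5:115429599-115455698 (Msi1), chr11:88339382-88718513 (Msi2), chr11:95957163-96005940 (Igf2bp1), chr16:22059009-22163299 (Igf2bp2) and chr6:49085223-49214957 (Igf2bp3), all on the minus strand but Msi1. Genes on the opposite strand overlap Lin28a (Gm13061), Trim71 (C130032M10Rik), Msi1 (4930430O22Rik), Msi2, Igf2bp1 and Igf2bp3 (Malsu1 among them). The sources used here do not say whether the counting used strand, so reads of such neighbours could not be told apart from theirs. Lin28b and Igf2bp2 overlap no annotated gene.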

How the data were processed

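Single-cell poly(A) RNA libraries were made by a modified CEL-seq method, per the labels' protocols. Each deposited table covers a plate and holds raw counts, 1 row a gene and 1 column a well. Per the submitters' processing notes, TopHat2 2.1.1 and HTSeq 0.6.1 were used with mm10; the notes do not say which step each did. Columns have no header, so each was given the group of its plate, and they carry no barcode sequence that could be compared between plates. No pair of kept cells shared all counts. A further table of 40 columns fits no sample's label and was left out. Summary lines of the counting and spike-in sequences, 34.9% and 6.16% of reads, stayed out of library sizes.

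Reads of cells with at least 500 detected genes were summed per group and experiment. The 12 sums without eGFP+ were fitted with edgeR 4.0.16 in R 4.3.3 (filterByExpr, TMM, quasi-likelihood, group plus experiment, 5 residual degrees of freedom, 16080 genes). The slope used the 10 sums of unselected days (15971 genes, 7 degrees of freedom). Tests were two-sided, adjusted by Benjamini-Hochberg over all genes, with a threshold of 0.05. Shares used cells thinned to 10000 reads (99.3% of main and 99.7% of pilot cells were deep enough). The edgeR fits were also run on simulated sums with a smaller spread than the real ones and no experiment effect. That run does not show what they can detect here. Alternatives were DESeq2 1.42.0, other scalings and filters, cells with a read in place of reads, no experiment term, and leaving out sums or plates. The 8 genes, the lists and the tests were chosen with earlier results of these data known. Named genes are the 8, the 3 most alike to each (not all are given), and the 3 of each list with the smallest slope p, of which those called or closest to it are given; a few of these genes are not reported here. Figures were drawn with matplotlib 3.10.9.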

Additional observations from a re-analysis of the deposited data

How the results depend on the processing

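A p that misses the threshold does not show that levels were equal. Of 110 recounts of called genes among the 8, all but 8 gave 0, including every fit that left out 1 sum (lowest 0, highest 0). DESeq2 called 1 for eGFP++ against Day 6 (3.26% of all genes) and 2 for the slope (16.3%). Cells with a read in place of reads called 1 for Day 6 against Day 5 (2.22% of genes), 2 for Day 6 against Day 2 (30.8%), 1 for eGFP++ against Day 6 (1.31%) and 2 for the slope (26.5%), of 7 genes tested. Spike-in scaling called 2 for Day 6 against Day 2 (13.3%) and 4 for the slope (30.2%). The counts of 2 of 7 are near the share of all genes. Without the experiment as a replicate block the count stayed at 0 in all 7 comparisons.

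With cells in place of reads the sign turned for Igf2bp1 (0.070) and Igf2bp3 (0.090) in Day 6 against Day 5, Msi2 (0.37) and Igf2bp1 (0.039) in Day 6 against Day 2, Lin28b (-0.15) and Igf2bp2 (-0.21) in eGFP++ against Day 6, and Lin28b (0.12), Msi2 (0.11) and Igf2bp2 (0.00042) in the slope. Spike-in scaling turned Igf2bp2 in Day 6 against Day 5 (-0.70), Igf2bp3 in Day 6 against Day 2 (-1.31) and in the slope (-0.23), and Msi2 in eGFP++ against Day 6 (0.30). Without the replicate block Msi1 turned in eGFP++ against Day 6 (1.01). Leaving out 1 sum gave ranges across 0 for Msi1 (-4.97 to 2.07) and Igf2bp2 (-0.35 to 0.90) in Day 6 against Day 5. It did so for Lin28a (-0.81 to 2.89), Lin28b (-0.99 to 1.56), Msi1 (-6.22 to 0.61), Msi2 (-0.85 to 0.25) and Igf2bp2 (-0.64 to 1.42) in eGFP++ against Day 6, and for Trim71 (-0.21 to 0.15), Msi2 (-0.16 to 0.0080) and Igf2bp2 (-0.14 to 0.035) in the slope. Share slopes turned at 5 thinned reads for Lin28b (-0.17) and Msi2 (-0.29), in the main experiment alone for Msi2 (-0.25) and Igf2bp1 (-3.74), without thinning for Igf2bp2 (0.50) and in the pilot alone for Igf2bp2 (0.63). The cause of these turns was not tested.

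Weighting each cell equally, or leaving out the well with most reads, moved 20 of 96 group means of CPM by more than their spread, among them Lin28b on Day 2 (5.84 CPM without that well) and on Day 3 (10.4 CPM).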
